A study of Mus musculus with 4 samples.

Results

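Hyaluronan is a long sugar chain of the extracellular matrix, and 8 genes that make or bind it were described across the cells of transplanted mouse hearts. The genes were *Has1*, *Has2*, *Ugdh*, *Uap1*, *Tnfaip6*, *Ptx3*, *Prg4* and *Cd44*, chosen by symbol, and all 8 were found among the 30905 genes of the matrix. They had been picked with earlier results from these cells in view, so their levels by cell class are given as a description and without a test.

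Donor hearts from BALB/c mice (the allogeneic grafts, 2 samples) or C57BL/6J mice (the syngeneic grafts, 2 samples) were placed in the abdomen of C57BL/6J recipients. All mice were male and 8 to 10 weeks old, and the grafts were taken on day 5. The tissue was digested to single cells with collagenases and dispase, and unique molecular identifiers (UMIs, counted transcripts) were read from the 3′ end of each transcript, so that a UMI count does not grow with transcript length. The 53824 cells stood in 1 merged matrix, whose barcode suffixes 1 to 4 mark 4 libraries. The labels and files do not say which suffix belongs to which graft. The cells were therefore treated as 1 pooled sample, with no comparison of allogeneic against syngeneic grafts and no replicates.

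Libraries 1 to 4 held from 96020294 to 166079145 UMIs, and 42395 cells passed the filters. A level is given in CPM, the UMIs of a gene scaled to a total of 1000000 non-mitochondrial UMIs in the cells concerned. Beside a level stands its exact Poisson 95% interval, and beside a share of cells its 95% interval by the Clopper-Pearson method. Both cover counting error only. Fibroblast-like cells were 6742 of the 42395 cells, with all 12 fibroblast markers at 20 CPM or more in their pooled UMIs in each library. They came from different clusters in each library, mainly cluster 10 in library 1, 16 in library 2, 7 and 17 in library 3 and 23 in library 4, and their median depth was 10997, 21665, 14623.5 and 25603.5 UMIs in libraries 1 to 4. Library 2 stood apart. Its fibroblast-like cells held 1.20% of their UMIs in the 12 fibroblast markers against 3.39% to 5.51% in the other libraries. Of these markers *Col1a1*, a chain of type I collagen, lay at 303 CPM against 5293 to 8279 CPM. *Dcn* (6294 CPM against 5296 to 20314) and *Pdgfra* (272 CPM against 177 to 379) lay within the range of the other libraries. Neutrophil markers took 0.0744% of UMIs against 0.00228% to 0.00406%. The part of these differences in the levels below was not tested. Clustered again below, the class held subclusters whose largest share of raised markers was that of cardiomyocytes, macrophages, endothelium or Schwann cells. In that order they were 6 (448 cells), 7, 10 and 15 (419, 171 and 54), 11 and 13 (157 and 143) and 12 (152). The largest in libraries 1 to 4 held 7.92% (6), 14.8% (11), 12.4% (7) and 30.2% (10) of the fibroblast-like cells. Whole-class levels and shares include these cells. Across the libraries 308 barcodes occurred more than once, and they marked 67 of the fibroblast-like cells.

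In textbook terms, hyaluronan is spun out through the plasma membrane by hyaluronan synthases, which draw on a pair of activated sugars made in the cytosol. Secreted proteins then cross-link or coat the chain, and cells grip it through surface receptors. It is scarce in the resting heart and gathers in inflamed and wounded tissue, where it holds water and gives arriving leukocytes a substrate.

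The genes fall into 4 roles. The synthases are *Has1* (chromosome 17, 17843323 to 17855205, minus strand) and *Has2* (chromosome 15, 56665627 to 56694539, minus strand), which polymerize the chain. The precursor enzymes are *Ugdh* (chromosome 5, 65413221 to 65435949, minus strand), which oxidizes UDP-glucose to UDP-glucuronic acid, and *Uap1* (chromosome 1, 170141938 to 170174957, minus strand), which makes UDP-N-acetylglucosamine. The secreted partners are *Tnfaip6* (chromosome 2, 52038009 to 52056686, plus strand), which encodes TSG-6, the enzyme that hands heavy chains of inter-alpha-inhibitor to hyaluronan, *Ptx3* (chromosome 3, 66219910 to 66225805, plus strand), a long pentraxin that binds the cross-linked matrix, and *Prg4* (chromosome 1, 150449412 to 150466165, minus strand), the lubricant mucin lubricin. The receptor is *Cd44* (chromosome 2, 102811141 to 102901665, minus strand), the main cell-surface receptor for hyaluronan. Coordinates are those of GRCm38 in GENCODE M21.

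*Has1*, *Tnfaip6* and *Ptx3* were higher in subcluster 1 than 5 and in 3 than 2 of the fibroblast-like cells described below, though not alike in every subcluster. For this reason the sequences before their starts are shown. They are RefSeq sequences of build GRCm38.p6, taken from the 250 bases before the RefSeq start and printed only as far as the GENCODE gene begins, 5′ to 3′ on the strand of the gene, and 6 of the 8 genes had an entry. Capitals mark matches, on either strand, to AP-1 (TGANTCA), STAT (TTCNNNGAA), the TATA box (TATAAA), the CCAAT box (CCAAT), C/EBP (TTGCNNCAA) or the NF-kB motif. The stretches are chr17:17855206-17855438 on the minus strand, chr2:52037863-52038008 on the plus strand and chr3:66219637-66219886 on the plus strand.
Has1: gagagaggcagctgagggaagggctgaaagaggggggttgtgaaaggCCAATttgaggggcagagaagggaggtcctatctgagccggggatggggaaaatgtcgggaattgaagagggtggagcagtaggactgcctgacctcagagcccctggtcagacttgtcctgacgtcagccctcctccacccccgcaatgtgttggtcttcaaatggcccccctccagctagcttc
Tnfaip6: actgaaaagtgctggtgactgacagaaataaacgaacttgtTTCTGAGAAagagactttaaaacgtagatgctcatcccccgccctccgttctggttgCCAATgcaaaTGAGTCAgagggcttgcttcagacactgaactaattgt
Ptx3: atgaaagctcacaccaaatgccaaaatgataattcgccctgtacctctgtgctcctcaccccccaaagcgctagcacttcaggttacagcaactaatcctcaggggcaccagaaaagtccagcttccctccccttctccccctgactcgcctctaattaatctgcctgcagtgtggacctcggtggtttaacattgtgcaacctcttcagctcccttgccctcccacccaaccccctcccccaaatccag

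*Tnfaip6* had an AP-1 match at 142 to 136 bases before its RefSeq start, a STAT match at 209 to 201 bases and a CCAAT box at 152 to 148 bases, none of them overlapping. Another CCAAT box at 81 to 77 bases lay within the GENCODE gene and is not printed. *Has1* had 1 CCAAT box, at 203 to 199 bases, *Uap1* had 1 at 79 to 75 bases, and *Ptx3*, *Ugdh* and *Cd44* had no match to any of the 6 motifs. Among the 32851 promoter windows of the same length, 6.75% held AP-1, 7.02% STAT, 33.8% the CCAAT box, 12.4% the TATA box, 1.74% C/EBP and 7.25% the NF-kB motif. A match is a run of letters and not a bound site.

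Of the 8 genes, 7 had their highest pooled level in fibroblast-like cells, and *Cd44* had its highest in neutrophil-like cells. Of the 9909 genes at 20 CPM or more in a named class, 9.06% were highest in fibroblast-like cells. Fibroblast-like cells were 15.9% of all cells and held 93.2% of all *Has1* UMIs, 93.9% of *Has2*, 72.3% of *Ugdh*, 61.3% of *Uap1*, 83.0% of *Tnfaip6*, 93.3% of *Ptx3* and 92.2% of *Prg4*. They held 12.7% of *Cd44* UMIs, against 53.5% in macrophage-like and 23.1% in neutrophil-like cells. These shares follow the number and depth of the cells as well as the level in each.

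**Figure D1:**
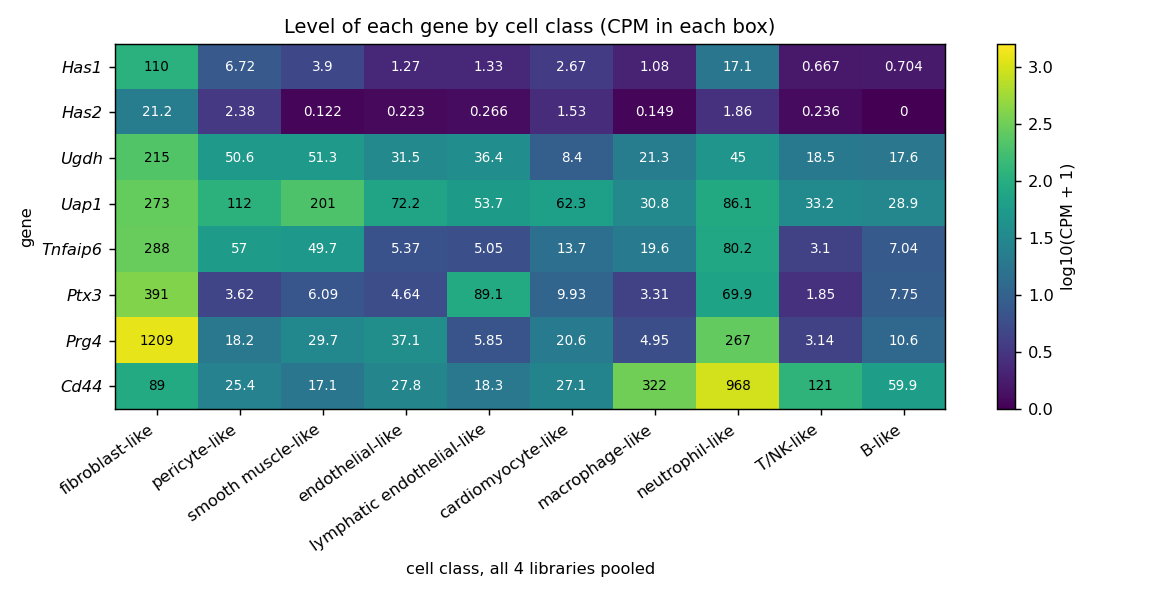
Pooled level of each gene (rows) in each cell class (columns), colored by log10(CPM + 1) with the CPM written in each box. *Has1* to *Prg4* peak in the fibroblast-like column, at 21.2 (*Has2*) to 1209 CPM (*Prg4*), and *Cd44* peaks in the neutrophil-like column at 968 CPM.

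At a fold of at least 4, with 10 CPM added to both sides, 3 of 7 measured genes were higher in fibroblast-like than in endothelial-like cells of library 1 (*Has1*, *Tnfaip6* and *Ptx3*), where 6.27% of all genes passed. In library 2 the count was 8 of 8 against 4.07% of all genes, in library 3 it was 4 of 7 against 5.68%, and in library 4 it was 5 of 8 against 5.13%. *Has2* was under the minimum level in libraries 1 and 3. Against macrophage-like cells 5 of 7, 7 of 8, 5 of 7 and 6 of 8 genes passed in libraries 1 to 4, where 8.99%, 6.45%, 8.47% and 9.19% of all genes did. The genes were chosen on such levels, so the counts describe the list and support nothing further.

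*Has1* in fibroblast-like cells was at 65.9 CPM (95% interval 63.0 to 68.9) in library 1, 270 CPM (263 to 276) in library 2, 43.2 CPM (41.3 to 45.3) in library 3 and 140 CPM (134 to 146) in library 4. *Has2* was lower in all 4 libraries, at 6.88, 42.8, 18.9 and 22.1 CPM. Library 2 was highest for both synthases, library 3 was lowest for *Has1* and library 1 was lowest for *Has2*, and the *Has2* intervals of libraries 3 (17.6 to 20.3) and 4 (19.8 to 24.7) overlapped. Outside fibroblast-like cells the pooled levels of both synthases were lower. Endothelial-like cells had 0.602 to 2.28 CPM of *Has1* and 0.0429 to 0.309 CPM of *Has2*, and 0 of 327 B-like cells had a UMI of *Has2*. By the limit of 3 counts for a count of 0, this allows a share of up to 0.917% of cells with a UMI at their median depth of 3819 UMIs, and it sets no limit on cells with the transcript. Pericyte-like cells of library 2 had 15.5 CPM of *Has1*, against 1.95 and 2.27 CPM in libraries 3 and 1.

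A UMI of *Has1* was found in 13.7%, 56.2%, 12.2% and 42.4% of fibroblast-like cells of libraries 1 to 4. With each cell thinned to 1000 UMIs the shares were 3.98%, 16.1%, 2.79% and 9.31%. In T/NK-like cells, which should lack the gene, 0.163% of thinned cells pooled over the libraries had a UMI. Of these 1870 cells before thinning, 1410 were from library 4 and 163 from library 2, so the share is no background for library 2 alone. The order of the libraries was the same before and after thinning.

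The precursor enzymes were broadly present, with fibroblast-like cells at the top of both by pooled level. *Ugdh* in fibroblast-like cells was at 136, 467, 140 and 194 CPM in libraries 1 to 4, and the intervals of libraries 1 (132 to 140) and 3 (136 to 143) overlapped. Every other named class had a pooled *Ugdh* level of 8.40 to 51.3 CPM. *Uap1* was at 114, 806, 122 and 189 CPM in fibroblast-like cells. Smooth muscle-like cells followed with a pooled *Uap1* level of 201 CPM (191 to 211), and were at 123 and 151 CPM in libraries 1 and 3. In library 1 their interval (109 to 138) overlapped that of fibroblast-like cells (110 to 118), and in library 3 it lay above (137 to 166 against 119 to 125).

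Among the secreted partners, *Tnfaip6* in fibroblast-like cells was at 239, 617, 140 and 297 CPM in libraries 1 to 4, and *Ptx3* was at 119, 1150, 138 and 471 CPM. Both were highest in library 2 and second in library 4, while library 1 had more *Tnfaip6* than library 3 and less *Ptx3*. *Tnfaip6* was also found in mural cells, at 57.0 CPM (53.7 to 60.5) in pericyte-like and 49.7 CPM (45.0 to 54.8) in smooth muscle-like cells, whose intervals overlapped, against 5.37 CPM in endothelial-like cells. Macrophage-like cells had 47.3 and 18.8 CPM of *Tnfaip6* in libraries 2 and 4 and 4.86 and 4.42 CPM in libraries 1 and 3.

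*Ptx3* had a further vascular site. Lymphatic endothelial-like cells, the lining of lymph vessels, had a pooled *Ptx3* level of 89.1 CPM (79.8 to 99.1), with 40.8 CPM in library 1 and 133 CPM in library 3. Other endothelial-like cells had 4.64 CPM (4.23 to 5.09), and pericyte-like cells had 3.62 CPM (2.82 to 4.57). Libraries 2 and 4 held 6 and 0 cells of the class named lymphatic endothelial-like, so no level is given for them. Among the fibroblast-like cells, clustered again below, subcluster 13 was endothelial-like and led by *Lyve1*, *Selp* and *Ccl21a*. Its 109 library 2 cells were 10.3% of the fibroblast-like cells of that library and held 0.0979% of their *Ptx3* UMIs.

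Of the 8 genes, *Prg4* had the widest range between libraries. Its level in fibroblast-like cells was 101 CPM (97.0 to 104) in library 1, 5163 CPM in library 2, 168 CPM (164 to 172) in library 3 and 196 CPM (189 to 203) in library 4, and 90.2% of its fibroblast-like UMIs came from library 2. Without library 2 the pooled level was 150 CPM in place of 1209 CPM, and without library 3 it was 1868 CPM. Leaving out library 2 also moved the pooled level of *Has1* from 110 to 67.2 CPM, that of *Uap1* from 273 to 131 CPM and that of *Ptx3* from 391 to 188 CPM. *Prg4* UMIs were also spread over the other classes of library 2. T/NK-like cells there had 60.2 CPM (43.9 to 80.6), cardiomyocyte-like cells 201 CPM (145 to 272) and endothelial-like cells 53.8 CPM (51.2 to 56.4). In library 1 those classes had 3.52, 3.44 and 33.6 CPM, and in library 3 they had 6.98, 13.4 and 32.8 CPM. Endothelial-like cells of libraries 1 and 3 thus had more *Prg4* than T/NK-like or macrophage-like cells of the same libraries (2.99 to 6.98 CPM), and those of library 4 had 2.53 CPM (1.57 to 3.87).

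**Figure D2:**
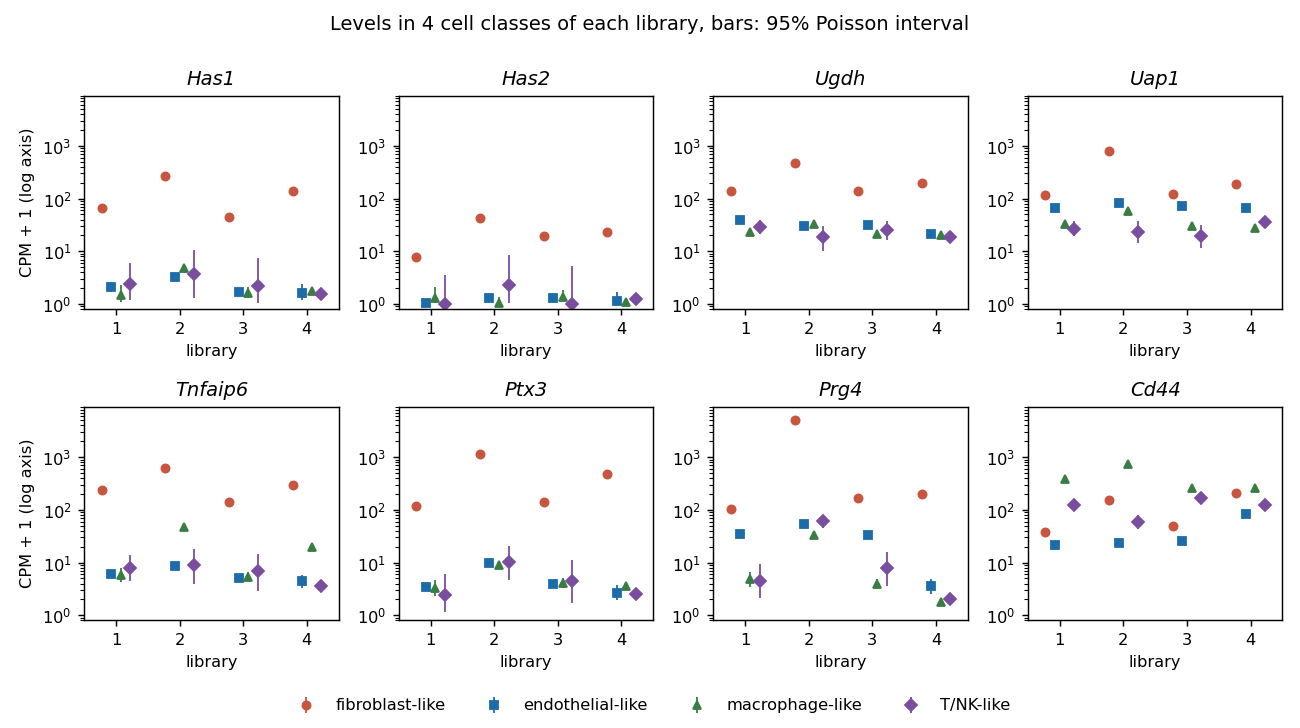
Level of each gene (CPM + 1 on a log axis) in fibroblast-like, endothelial-like, macrophage-like and T/NK-like cells of libraries 1 to 4, with exact Poisson 95% intervals as bars. Fibroblast-like points lie above the other 3 classes in every library for all genes but *Cd44*, and *Prg4* reaches 5163 CPM in library 2 against 101 to 196 CPM in the other libraries.

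After thinning to 1000 UMIs, 2.64%, 37.0%, 3.85% and 11.9% of fibroblast-like cells in libraries 1 to 4 had a UMI of 3 or more of the 8 genes. These shares grow with the level of each gene and are no measure of joint detection. *Tnfaip6* was found in 30.4% (21.3 to 40.9) of the thinned library 1 cells with *Has1* and in 14.6% (13.2 to 16.2) of those without it. The shares were 44.5% (36.8 to 52.5) against 23.9% (21.0 to 26.9) in library 2, 39.4% (28.0 to 51.7) against 9.67% (8.53 to 10.9) in library 3 and 38.3% (24.5 to 53.6) against 19.2% (15.7 to 23.1) in library 4. The intervals did not overlap in any library. *Prg4* was found in 64.0% (56.2 to 71.4) of library 2 cells with *Has1* and in 49.2% (45.8 to 52.6) of those without it. In libraries 1, 3 and 4 it was found in 5.43%, 7.04% and 14.9% of cells with *Has1* and in 4.32%, 6.96% and 12.9% of cells without it, with overlapping intervals. Cells of a library share their source, and these intervals cover counting error only. The shares are over the whole class, whose subclusters, described below, differed in both *Has1* and *Tnfaip6*. Subcluster 1 was 45.7% of the class in library 1 and held 81.7% and 81.2% of their UMIs. Subcluster 10 was 30.2% in library 4 and held 0.442% and 0.830%. Joint detection within a subcluster was not tested.

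Fibroblast-like cells were clustered again, without the 8 genes among the genes used, into 16 subclusters. Subclusters 1 and 5 were resting fibroblast-like, both led by *Clec3b* (tetranectin), *Inmt*, *Gsta3* and *Scara5*. Subcluster 3 was activated fibroblast-like and led by *Eln* (elastin), *Cilp* and *Col8a1*. Subcluster 2, led by *Aspn*, *Cthrc1* and *Cilp*, held 5 of 7 activated fibroblast markers and stayed unnamed because markers of tendon- or valve-type stroma were more frequent among its leading genes. The pairs 1 and 5 and 3 and 2 were set side by side after their values had been seen, in libraries 1 and 3, which held the cells of all 4 subclusters, and no test was made.

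In library 1, *Has1* reached 105 CPM (1571 UMIs) in subcluster 1 but 2.69 CPM (12 UMIs) in subcluster 5, a ratio of 39.1 (95% counting interval 22.3 to 75.9). In library 3 the levels were 161 and 2.84 CPM, a ratio of 56.8 (15.6 to 470.2) that rests on 2 UMIs in subcluster 5. *Ptx3* was at 191 and 11.2 CPM in library 1, a ratio of 17.0 (12.9 to 23.0), and at 430 and 11.3 CPM in library 3, a ratio of 37.9 (19.2 to 87.9). The synthase gene and the pentraxin gene were thus almost limited to subcluster 1 of this pair in both libraries.

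*Tnfaip6* was at 381 and 47.1 CPM in library 1, a ratio of 8.08 (7.04 to 9.32), and at 526 and 59.6 CPM in library 3, a ratio of 8.83 (6.50 to 12.3). The precursor enzymes differed less, with ratios of 2.07 and 3.76 for *Ugdh* and 1.46 and 3.33 for *Uap1* in libraries 1 and 3. The ratio of *Has2* was 1.69 (1.08 to 2.76) in library 1 and 5.64 (2.35 to 17.7) in library 3. *Cd44* had ratios of 1.34 (1.03 to 1.78) and 1.04 (0.645 to 1.77). At a fold of at least 4, with 10 CPM added, *Has1*, *Tnfaip6* and *Ptx3* were the genes of the list that passed in both libraries, 3 of 7 measured against 0.587% of all genes in library 1 and 3 of 8 against 0.830% in library 3. The median fold of the measured genes of the list was 1.95 and 3.29, and that of all genes 0.923 and 0.930. The pair was chosen with the values of these genes in view, so the counts and medians describe it and support nothing further.

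In the pair 3 and 2, *Has1* reached 88.3 CPM in subcluster 3 but 7.44 CPM in subcluster 2 of library 1, a ratio of 11.9 (8.02 to 18.1). In library 3 the levels were 67.7 and 4.24 CPM, and the interval of their ratio was 12.4 to 20.8. *Ptx3* had ratios of 7.42 (5.50 to 10.1) and 16.3 (14.2 to 18.9), and *Tnfaip6* had ratios of 3.89 (3.26 to 4.65) and 4.46 (4.08 to 4.87). *Has2* had ratios of 9.99 (3.74 to 33.5), which rests on 5 UMIs in subcluster 2, and 4.18 (3.38 to 5.21). *Cd44* was at 197 and 15.4 CPM in library 1, a ratio of 12.8 (9.79 to 17.1), but at 48.0 and 24.4 CPM in library 3, a ratio of 1.97 (1.74 to 2.23). *Prg4* went the other way in library 3, at 58.3 CPM in subcluster 3 but 132 CPM in subcluster 2, a ratio of 0.444 (0.410 to 0.480), and had a ratio of 1.35 (1.07 to 1.69) in library 1. At the same fold *Has1*, *Ptx3* and *Cd44* passed in library 1, 3 of 7 against 0.667% of all genes, and *Has1* and *Ptx3* in library 3, 2 of 8 against 0.507%. This pair too was chosen with the values in view, and its counts support nothing further.

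**Figure D3:**
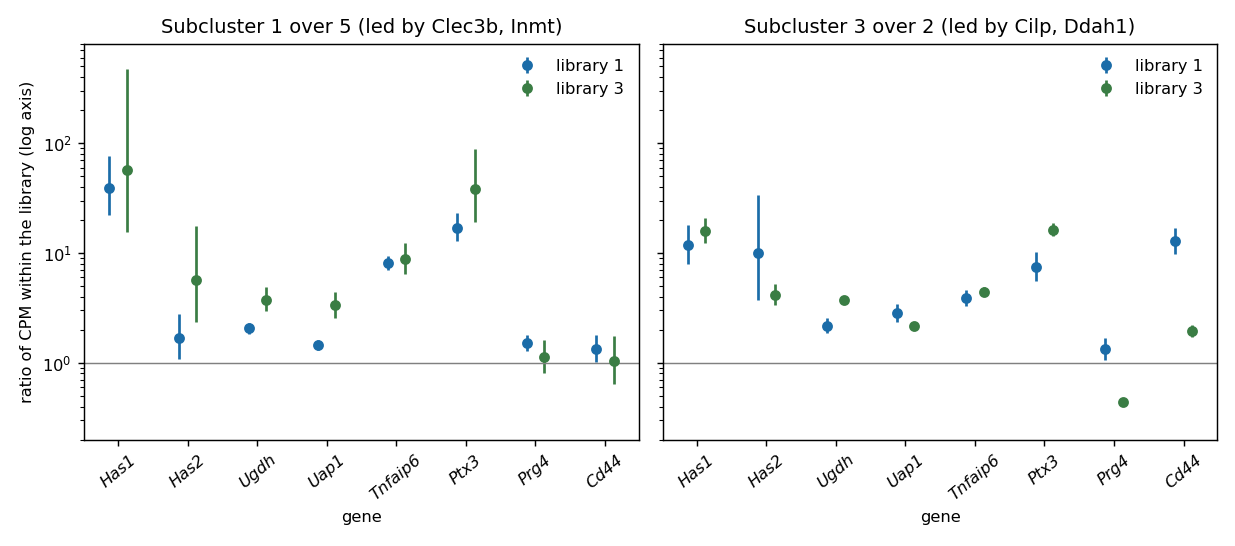
Ratio of levels between paired subclusters of fibroblast-like cells within libraries 1 and 3 (log axis), with 95% counting intervals as bars and a line at 1. *Has1*, *Tnfaip6* and *Ptx3* lie above 3 in both pairs and both libraries, from 3.89 to 56.8, and *Prg4* lies between 0.444 and 1.52.

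Other transcripts moved with these pairs. The genes with the largest fold were *Il6* (interleukin 6), *Cxcl1* (a neutrophil chemokine), *Adamts4*, *Thbs1* and *Gm12840* for subcluster 1 over 5 in library 1, and *Cxcl1*, *Ccl2*, *Ptgs2*, *Il6* and *Nr4a3* for 3 over 2 in library 3. *Il6* was at 432 and 14.8 CPM in subclusters 1 and 5 of library 1 and at 695 and 19.9 CPM in library 3. A list of 12 immediate-early and heat-shock genes, written after the values were seen, took 2.91% of UMIs in subcluster 1 and 0.639% in subcluster 5 of library 1, and 2.03% and 0.556% in library 3. In subclusters 3 and 2 it took 1.95% and 0.372% in library 1 and 1.63% and 0.405% in library 3. All 12 genes were at 20 CPM or more in each of these groups. Depth also differed, with medians of 12428.5 and 8242.5 UMIs in subclusters 1 and 5 and 23650.5 and 16448 UMIs in subclusters 3 and 2 of library 1. The median mitochondrial share of UMIs was 4.78% and 6.21% in subclusters 1 and 5 of library 1 and 4.88% and 6.92% in library 3, and it was 4.23% and 4.79% in subclusters 3 and 2 of library 1 and 4.48% and 5.84% in library 3. Erythroid markers took 0.0638% and 0.173% of UMIs in subclusters 1 and 5 of library 1. The part of these in the ratios was not tested.

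*Prg4* followed another division of the fibroblast-like cells. Subcluster 9 held markers of tendon- or valve-type stroma, 6 of 7, and was led by *Ptgds*, *Cytl1*, *Wif1*, *Chad* and *Cyp2e1*. Its *Prg4* level was 1023 CPM (121 cells) in library 1, 9470 CPM (29 cells) in library 2 and 1853 CPM (123 cells) in library 3. These cells were 4.94% of the fibroblast-like cells of library 1 and held 51.2% of their *Prg4* UMIs, and in library 3 they were 4.62% and held 47.4%. Subclusters 1, 2, 3 and 5 had 37.3 to 132 CPM in the same libraries. *Has1* in subcluster 9 was 47.6 and 45.7 CPM in libraries 1 and 3, below subclusters 1 and 3, and 2.54 CPM (1 UMI in 29 cells) in library 2.

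Most fibroblast-like cells of library 2 formed subcluster 4, which held 711 cells of library 2 and 1 cell of another library. It was led by *Prg4* itself with *Cxcl5*, *Il11*, *Csf2* and *Cxcl3*. It stayed unnamed because the list with the largest share of markers raised over the other subclusters was that of neutrophils, 3 of 6. The 12 fibroblast markers were not a list in this step. All 12 were at 20 CPM or more in its library 2 cells and took 1.25% of UMIs, against 0.0525% for neutrophil markers. Its library 2 cells had 306 CPM of *Has1*, 48.4 of *Has2*, 531 of *Ugdh*, 898 of *Uap1*, 694 of *Tnfaip6*, 1310 of *Ptx3*, 5593 of *Prg4* and 150 of *Cd44*. They held 90.8% of the *Prg4* UMIs of the fibroblast-like cells of library 2. Subcluster 8 was made of 314 cells of library 4 and 1 cell of another library, was led by *Cfd*, *Hp* and *Gbp2b*, and had 151 CPM of *Has1*, 324 of *Tnfaip6*, 533 of *Ptx3*, 219 of *Prg4* and 206 of *Cd44*. Subcluster 8 stayed unnamed in the same way, with T/NK markers, 4 of 9, as the largest share raised over the other subclusters. All 12 fibroblast markers were at 20 CPM or more in its library 4 cells and took 3.72% of UMIs. Subclusters 4 and 8 are nearly single libraries, so the state of the cells and the library cannot be told apart.

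The 46 mesothelial-like cells of subcluster 16 had *Has1* with few UMIs of *Has2* or *Ptx3*. *Has1* was at 140 CPM (123 to 157), with 68.8, 95.5 and 261 CPM in libraries 1, 3 and 4, while *Has2* was at 1.59 CPM (3 UMIs) and *Ptx3* at 3.18 CPM (6 UMIs). *Tnfaip6* was at 39.8 CPM, with 98.9 CPM in the 10 cells of library 4 and 11.5 and 14.2 CPM in libraries 1 and 3. All 10 mesothelial markers were found in the subcluster.

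**Figure D4:**
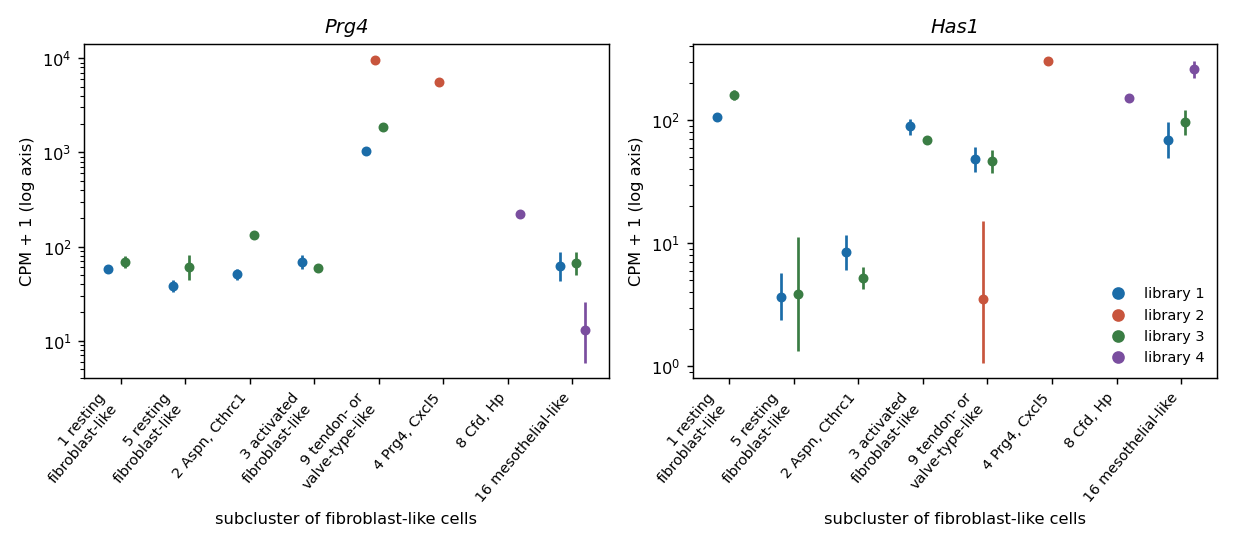
Levels of *Prg4* (left) and *Has1* (right) in subclusters of fibroblast-like cells, as CPM + 1 on a log axis, with points colored by library and exact Poisson 95% intervals as bars. *Prg4* exceeds 1000 CPM in subclusters 9 and 4 only among those drawn, and *Has1* lies below 10 CPM in subclusters 5 and 2 and above 60 CPM in subclusters 1, 3, 4, 8 and 16.

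Among the pooled named classes, *Cd44* was highest in neutrophil-like cells and second in macrophage-like cells. Neutrophil-like cells had 968 CPM over all libraries, but 615 of the 4437 cells formed cluster 22, all from library 2, whose level of *Dcn*, a fibroblast proteoglycan, was 1295 CPM against 49.3 to 245 CPM in the other 3 neutrophil-like clusters. Without it the *Cd44* level was 1091 CPM, with 897, 1137, 1433 and 786 CPM in libraries 1 to 4. The *Prg4* level of the class was 267 CPM with cluster 22 and 55.4 CPM without it, and that of *Has1* was 17.1 and 3.19 CPM.

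Macrophage-like cells had 322 CPM of *Cd44* (319 to 325), with 385, 732, 260 and 260 CPM in libraries 1 to 4, where the intervals of libraries 3 (252 to 268) and 4 (257 to 264) overlapped. They came mainly from cluster 12 in libraries 1 and 3, 15 in library 2 and 4 and 6 in library 4. Cluster 15, led by *Cxcl3*, *Arg1* and *Ccl6* and made of 853 library 2 cells among 1054, had 768 CPM, against 209 to 320 CPM in the other 3 macrophage-like clusters. T/NK-like cells followed with 121 CPM (116 to 125), then fibroblast-like cells with 89.0 CPM (87.2 to 90.7) and B-like cells with 59.9 CPM (47.8 to 74.0). At a fold of at least 4 over endothelial-like cells, *Cd44* passed in neutrophil-like cells of all 4 libraries, where 7.45%, 7.36%, 7.22% and 7.38% of all genes did, and in macrophage-like cells of libraries 1 to 3 (7.20%, 6.53% and 6.53% of all genes). It did not pass in macrophage-like cells of library 4, where 6.31% of all genes did. In T/NK-like cells it passed in libraries 1 and 3 (5.82% and 5.00% of all genes) and not in libraries 2 and 4 (4.49% and 5.36%).

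Among non-leukocytes, fibroblast-like cells were at 36.7, 153, 49.1 and 208 CPM of *Cd44* in libraries 1 to 4, with the higher levels in libraries 2 and 4. Endothelial-like cells were at 20.7, 22.9, 24.3 and 81.1 CPM (75.1 to 87.4 in library 4), the highest in library 4. These cells came mainly from cluster 1 in library 1, 2 in library 2 and 3 in library 3, while all 621 of library 4 were in cluster 21, led by *Cxcl9*, *Gbp2b* and *Ubd*, so that cluster and library cannot be told apart. Schwann-like cells of subcluster 12, the glia of cardiac nerves, had 224, 700 and 286 CPM in libraries 1 to 3, above the whole fibroblast-like class of the same libraries. Their level was above that of macrophage-like cells in library 3 and below it in libraries 1 and 2. Macrophage markers took 0.110% of the UMIs of fibroblast-like cells in library 4 against 0.00758% to 0.0291% in the other libraries, and their part in the *Cd44* level was not tested.

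**Figure D5:**
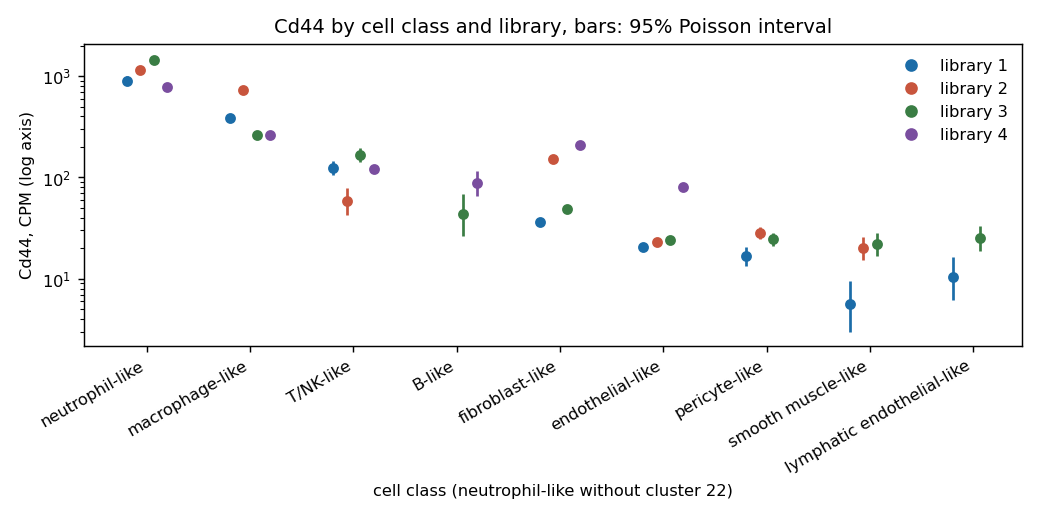
*Cd44* level (CPM on a log axis) by cell class, with points colored by library and exact Poisson 95% intervals as bars, and neutrophil-like cells drawn without cluster 22. Neutrophil-like points lie at 786 to 1433 CPM and macrophage-like points at 260 to 732 CPM, and the library 4 point of endothelial-like cells lies at 81.1 CPM above the 20.7 to 24.3 CPM of the other libraries.

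Across 34 groups of class and library with at least 50 cells, the likeness of each gene to 11036 others was measured by Pearson's correlation of log2(CPM + 10). The gene most like *Has1* was *Gfpt2*, which encodes an enzyme at the entry to the hexosamine pathway, with r = 0.958. *Has2* was most like *Fkbp11* (r = 0.951), *Ugdh* like *Tsku* (0.909), *Uap1* like *Sphk1* (0.879), *Tnfaip6* like *1810055G02Rik* (0.874), *Ptx3* like *Il33* (0.929), *Prg4* like *Cxcl5* (0.871) and *Cd44* like *Pgd* (0.954). Among the genes themselves r was 0.902 for *Has1* and *Has2*, 0.871 for *Has1* and *Tnfaip6* and 0.851 for *Has1* and *Ptx3*, and from -0.304 (*Uap1*) to 0.128 (*Tnfaip6*) for *Cd44* with the others. The groups share libraries and depth, and the correlations describe these groups only.

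The other genes of hyaluronan making, binding and breakdown were taken from a list of 42, of which 41 were in the matrix. Of the 5 precursor enzymes, all at 20 CPM or more in a class, 4 had their highest pooled level in fibroblast-like cells, against the 9.06% of all genes. *Gfpt2* was at 175 CPM there against 18.5 CPM in the next class, and at 170, 306, 121 and 136 CPM in libraries 1 to 4. *Gnpnat1* and *Pgm3*, later steps of the same route, were highest in library 2 as well, at 97.5 and 52.6 CPM against at most 37.9 and 35.5 CPM in the other libraries. *Gfpt1* (42.9 to 61.5 CPM) and *Ugp2* (93.4 to 159 CPM), which makes UDP-glucose, were highest in library 3. The remaining synthase *Has3* was at 2.83 CPM or less in every class.

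Of 12 cross-linkers and proteoglycans, 4 reached 20 CPM in any class. *Vcan*, the hyaluronan-binding proteoglycan versican, was at 128, 450, 288 and 372 CPM in fibroblast-like cells of libraries 1 to 4. *Itih5*, a relative of the inter-alpha-inhibitor heavy chains, ran the other way, at 185, 12.6, 163 and 23.6 CPM. *Itih4* was highest in smooth muscle-like cells at 395 CPM, as was *Acan* (aggrecan) at 75.9 CPM. *Itih1* and *Ambp*, parts of inter-alpha-inhibitor, which is made mainly in the liver, were at 1.15 and 2.90 CPM at most. *Itih2* was at most at 6.63 CPM, in fibroblast-like cells, and *Itih3* at 19.7 CPM, in lymphatic endothelial-like cells.

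Of the receptors and binders at 20 CPM or more in a class, 1 of 8 (*Layn*) was highest in fibroblast-like cells, and of the breakdown genes 0 of 6, where 9.06% of all genes were. Lymphatic endothelial-like cells had 922 CPM of *Lyve1*, the lymphatic hyaluronan receptor and a marker used to name them, 648 CPM of *Stab1*, 145 CPM of *Hyal2* and 272 CPM of *Tmem2*, a cell-surface hyaluronidase. Macrophage-like cells led for the lysosomal enzymes *Hexa* (349 CPM) and *Gusb* (186 CPM). In fibroblast-like cells *Hexa* was at 237, 32.1, 263 and 146 CPM in libraries 1 to 4, lowest in library 2. Of the 5 CD44 partners none was highest in fibroblast-like cells. *Srgn*, the proteoglycan serglycin, was highest in neutrophil-like cells at 9263 CPM, and *Spp1*, the CD44 ligand osteopontin, in macrophage-like cells at 1026 CPM.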

How the data were processed

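Counts of UMIs were deposited by the authors as a merged matrix without normalization. The authors aligned reads to mm10 with Cell Ranger 3.0.0 and counted genes of Ensembl 92. The 8 genes, all gene lists and the subcluster pairs were chosen with earlier results of these data known. Cells passed with over 200 genes and less than 20% of UMIs from mitochondrial genes (44626 cells), and the 5% per library most like simulated doublets were left out (42395 cells stayed). The 2000 most variable genes, without the 8 genes and the pathway list, gave 10 principal components and a graph of 30 shared neighbours, which the Leiden method clustered (resolution 0.8, seed 20). Fibroblast-like cells were clustered again at 0.5. The median cell used had 6444 UMIs, which limits the precision of shares of cells.

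To count for a cluster, a marker had to be found in 10% of its cells and, with 10 CPM added, to reach 2 times the median of the other clusters. The class with the highest share of markers, and at least 3, gave the name, unless another class had more markers among the 10 leading genes or the cluster was shallow. Lymphatic markers were not counted against endothelial clusters, nor tendon-, valve-type and mesothelial markers against fibroblast clusters, a choice made after the values were seen. A fold was computed for genes at 20 CPM or more on either side. Thinning was to 1000 UMIs per cell, and cells with fewer were left out. The genes named beside the 8 are the pathway list, the genes most like each and the leading genes of subclusters, with the leading genes of the pairs and of cluster 15 added after the values were seen. Alternatives changed the resolution, components, filters, doublets, class assignment and libraries. The steps were tested on simulated data. Python 3.11.15, numpy 2.4.6, scipy 1.17.1, scikit-learn 1.9.0, igraph 0.11.9 and leidenalg 0.10.2 were used.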

Additional observations from a re-analysis of the deposited data

How the results depend on the processing

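The levels in fibroblast-like cells differed little between clusterings and filters, and more between libraries. The values that left the counting interval of the reported level, all in CPM, were as follows. At a resolution of 0.4, the levels were 113 for *Has1*, 278 for *Uap1*, 294 for *Tnfaip6*, 401 for *Ptx3* and 1241 for *Prg4*. With 20 principal components, the levels were 115 for *Has1*, 222 for *Ugdh*, 284 for *Uap1*, 302 for *Tnfaip6*, 410.0 for *Ptx3*, 1271 for *Prg4* and 86.0 for *Cd44*, and 314 for *Cd44* in macrophage-like cells. With doublets kept, the levels were 106 for *Has1*, 209 for *Ugdh*, 264 for *Uap1*, 280.2 for *Tnfaip6*, 375 for *Ptx3* and 1152 for *Prg4*. With cells assigned by marker UMIs in place of clusters, the levels were 269 for *Uap1*, 285 for *Tnfaip6*, 385 for *Ptx3*, 1170 for *Prg4* and 83.3 for *Cd44*. Without barcodes shared between libraries, the level was 1183 for *Prg4*. Without Schwann-like and endothelial-like subclusters, the levels were 114 for *Has1*, 219.9 for *Ugdh*, 279.6 for *Uap1*, 297 for *Tnfaip6*, 404 for *Ptx3*, 1245 for *Prg4* and 85.5 for *Cd44*. A further alternative left out all subclusters whose largest share of raised markers was that of cardiomyocytes, macrophages, endothelium or Schwann cells. The levels were then 117 for *Has1*, 22.5 for *Has2*, 227 for *Ugdh*, 285 for *Uap1*, 306 for *Tnfaip6*, 415 for *Ptx3*, 1288 for *Prg4* and 83.1 for *Cd44*. Subclusters 4 and 8, whose largest share of raised markers was that of neutrophils and of T/NK cells, were kept in that alternative. Leaving out each library in turn gave 67.2 to 152 for *Has1*, 15.4 to 26.4 for *Has2*, 148 to 263 for *Ugdh*, 131 to 369 for *Uap1*, 200.1 to 382 for *Tnfaip6*, 188 to 552 for *Ptx3*, 149.7 to 1868 for *Prg4* and 70.6 to 114 for *Cd44*, and 268 to 469.8 for *Cd44* in macrophage-like cells. The alternatives that leave out shared barcodes, subclusters or cluster 22 were chosen after seeing the data. Of 123 values under an alternative, 49 stayed within the counting interval and 74 did not, among them none for cells with over 500 genes or at least 1000 UMIs or at a resolution of 1.6. The cause was not tested. No paired analysis was possible because no library could be assigned to a graft and no test was made. With 1 pooled sample, differences between libraries carry no replicate error, and depth limits the synthases most, whose UMIs in endothelial-like and lymphoid cells were few.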

Other observations

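The 4382 cells that stayed unnamed had a median of 991 UMIs and are in none of the comparisons above. Those of library 2, 2173 cells, had 418 CPM of *Prg4* (394 to 442), 121 CPM of *Ptx3* (108 to 134), 89.6 CPM of *Tnfaip6* (78.9 to 101) and 32.1 CPM of *Has1* (25.8 to 39.4). Those of libraries 1, 3 and 4 had 2.56 to 7.39 CPM of *Prg4* and 3.28 to 5.41 CPM of *Ptx3*. *Cd44* in the unnamed cells was at 97.6, 165, 136 and 162 CPM in libraries 1 to 4.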
